A study of Homo sapiens with 6 samples.

Results

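NF-kB is a family of dimeric transcription factors that switches on inflammatory genes, and its pathway and output were followed here through 41 listed genes in HCT-8 cells given a low dose of 5-fluorouracil (5-FU). Members were chosen by gene symbol, and all 41 symbols were found among the 58735 entries of the deposited count table. They took 42 entries, because SOD2 is listed under 2 identifiers. HCT-8 is a human colorectal adenocarcinoma line, grown as a monolayer in RPMI-1640 with serum. The control group was 3 untreated samples, and the 5-FU group was 3 samples treated at the drug's 10% inhibitory concentration; the molar dose and the duration were not stated. 5-FU is a fluoropyrimidine that inhibits thymidylate synthase and is incorporated into RNA and DNA. No label says whether replicates came from separate cultures; the p-values therefore measure spread among these libraries alone, and that spread may be technical.

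As background, the family has 5 subunits. In resting cells IkB proteins such as the products of NFKBIA, NFKBIB and NFKBIE hold the dimers in the cytoplasm. Signals from TNF, IL-1 or microbial products activate the IKK complex, built from IKBKB, CHUK and IKBKG, which marks IkB for destruction and frees the dimers. They bind kB sites and turn on chemokines, cytokines and their own inhibitors, NFKBIA and TNFAIP3 among them, so the pathway limits itself. In the colon epithelium the chemokines made this way attract neutrophils and lymphocytes.

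The kB motif stands at nearly the same place before several of the chemokine genes described here. The stretches that follow were taken from RefSeq promoters (GRCh38.p14), of which 33 of the 41 members had one. They are shown because these genes hold the sharpest changes or the plainest exceptions in the data. Each is 30 bases, 5′ to 3′ on the strand of the gene, and capitals mark every match to the kB consensus or to GGANNTTCC on either strand; the motifs overlap, so 1 run of capitals can hold matches to both.
CXCL1, plus strand, chr4:73869305-73869334: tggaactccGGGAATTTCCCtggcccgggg
CXCL2, minus strand, chr4:74099253-74099282: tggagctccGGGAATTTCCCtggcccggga
CXCL3, minus strand, chr4:74038748-74038777: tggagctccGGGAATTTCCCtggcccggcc
CXCL5, minus strand, chr4:73998748-73998777: atgagttcaGGGAATTTCCCcagcatccca
CXCL8, plus strand, chr4:73740468-73740497: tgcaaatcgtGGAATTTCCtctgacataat
CCL20, plus strand, chr2:227813753-227813782: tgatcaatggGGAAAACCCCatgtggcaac
LTB, minus strand, chr6:31582492-31582521: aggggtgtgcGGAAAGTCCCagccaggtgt
NFKB1, plus strand, chr4:102501300-102501329: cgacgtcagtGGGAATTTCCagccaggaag
NFKBIA, minus strand, chr14:35404811-35404840: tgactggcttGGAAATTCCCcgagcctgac
TNFAIP3, plus strand, chr6:137867188-137867217: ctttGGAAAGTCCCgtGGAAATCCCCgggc
CXCL1, CXCL2, CXCL3 and CXCL5 share the same 11-base run, and CXCL8 holds the 9 bases at its core. The run starts 79 bases before the start of CXCL1 and of CXCL3, 78 before that of CXCL2 and 91 before that of CXCL5 and CXCL8. A longer stretch, from 110 to 36 bases before the start, is shown for the gene of the most widely used IkB inhibitor, NFKBIA, and for CXCL1, whose windows lie outside their gene models.
NFKBIA, minus strand, chr14:35404785-35404859: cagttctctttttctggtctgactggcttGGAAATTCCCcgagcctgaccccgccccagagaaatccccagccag
CXCL1, plus strand, chr4:73869283-73869357: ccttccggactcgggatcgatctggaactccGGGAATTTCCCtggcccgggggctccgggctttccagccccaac

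Within the 250 bases before the start, 20 of the 33 members with a promoter entry held at least 1 match to the kB consensus or to GGANNTTCC (60.6%), against 11.5% of 27305 RefSeq promoters. For the kB consensus alone it was 17 of 33 against 9.57%, for GGANNTTCC 18 of 33 against 3.88%, and for the TATA box, TATAAA, 9 of 33 against 11.1%. All searches covered both strands. The list was drawn up around NF-kB genes and their known targets, so these shares are a description and no test. CXCL1, CXCL2 and CXCL3 hold nearly the same stretch and were counted separately. A match describes letters in this window and is not a measured binding site. C3, CCL2, CSF1, CXCL16, IKBKB, IL18, NFKBIE and RELB were not matched.

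**Figure D1:**
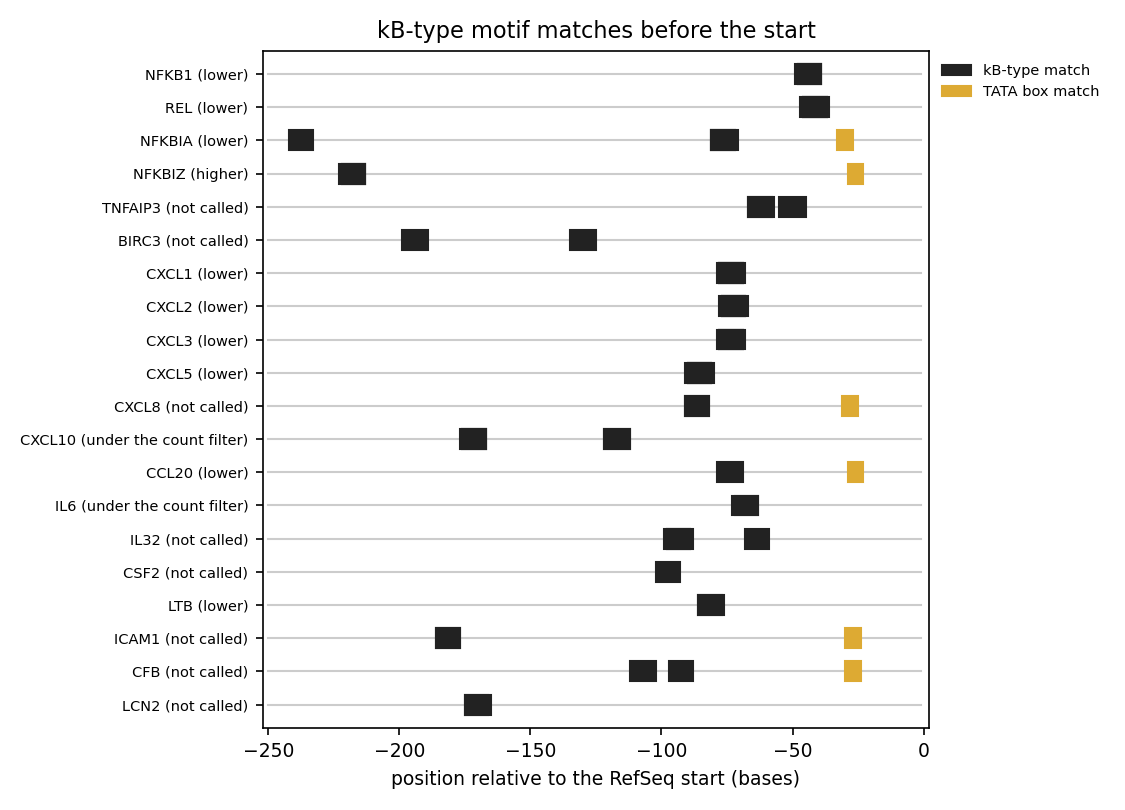
Matches to either kB-type motif (black) and to the TATA box (yellow) in the 250 bases before the RefSeq start of the 20 members that hold a kB-type match; the horizontal axis is the position in bases and the bracket after each name gives the gene's call after 5-FU. In CXCL1, CXCL2, CXCL3, CXCL5, CXCL8, CCL20, LTB and NFKBIA a match lies between 60 and 100 bases before the start. IL32 and CFB, which were not called, and IL6, under the count filter, hold a match there too.

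Library totals ran from 18459939 to 23495607 counts. Mitochondrial transcripts took 4.66% to 4.88% of counts in control and 25.5% to 28.5% in 5-FU libraries. Levels are given as CPM, counts scaled to library size with TMM factors, or, where genes are set side by side, as the authors' FPKM, which also divides by gene length. A gene was called at an adjusted p under 0.05 in edgeR's quasi-likelihood test over all 19771 genes with enough counts. By that rule 70.2% of all genes were called, 36.3% as higher and 33.9% as lower after 5-FU, and the 2 groups did not overlap for 74.3%. Upper-quartile scaling gave 9602 higher and 4614 lower genes in place of 7171 and 6706 and moved the median of all genes up by 0.36 on the log2 scale, while limma on log2(FPKM + 1) gave 4320 higher and 7136 lower and moved it by -0.29 over the 16093 genes past its FPKM filter. Without that filter limma gave 6926 and 6902 and moved it by -0.05. The epithelial markers EPCAM, KRT8, KRT18, KRT19, CDH1, VIL1 and CDX2 were all present, summing to 4686 to 6531 CPM in control and 3503 to 4478 CPM in 5-FU libraries. EPCAM (log2 fold change -0.95), CDX2 (-1.14) and KRT8 (-0.57) were called lower. KRT8 lost its call in 5 of 16 alternative settings, upper-quartile scaling among them, while EPCAM and CDX2 kept theirs in all 16. Of 11 leukocyte markers 4 had enough counts to be tested, and the list summed to 11.6 to 12.6 CPM in control and 14.3 to 15.7 CPM after 5-FU, with CSF1R called higher. The 5 fibroblast markers summed to 15.7 to 20.0 CPM in control and 33.9 to 63.9 CPM after 5-FU, with COL1A1 called higher (log2 fold change 1.48) and DCN and LUM at 0 in every library. The 3 endothelial markers summed to 2.17 to 3.12 and 3.50 to 5.50 CPM, with VWF called higher (0.97). The part of these markers in the results was not tested. PTPRC, carried by all leukocytes, was read 2, 7 and 0 times in the control libraries and 3, 6 and 5 times after 5-FU. Fewer cells of a kind and less RNA per cell cannot be told apart in such bulk samples.

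Of the 38 members tested, 17 fell and 7 rose after 5-FU, and 14 were not called. That is 63.2% called, near the 70.2% of all genes; 44.7% fell against 33.9%, and 18.4% rose against 36.3%. The groups did not overlap for 22 of the 38 (57.9%), against 74.3% of all genes. The median log2 fold change was -0.38 for the members and 0.09 for all tested genes. With upper-quartile factors these medians were -0.02 and 0.45, and with limma on log2(FPKM + 1) they were -0.49 and -0.20. By role, 6 of 8 chemokines, 4 of 6 inhibitors, 2 of 5 subunits, 3 of 8 cytokines and 2 of 6 effectors fell, and 3 of 5 kinase subunits and adaptors rose. Differences between roles were not tested. Under the count filter were CXCL10, IL6, PTGS2 and the second SOD2 entry. CXCL10 was counted 7, 6 and 6 times in control and 9, 9 and 4 times after 5-FU. IL6 had 2, 1 and 1 against 5, 4 and 4, and PTGS2, the inducible cyclooxygenase, 0, 3 and 0 against 4, 3 and 2.

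**Figure D2:**
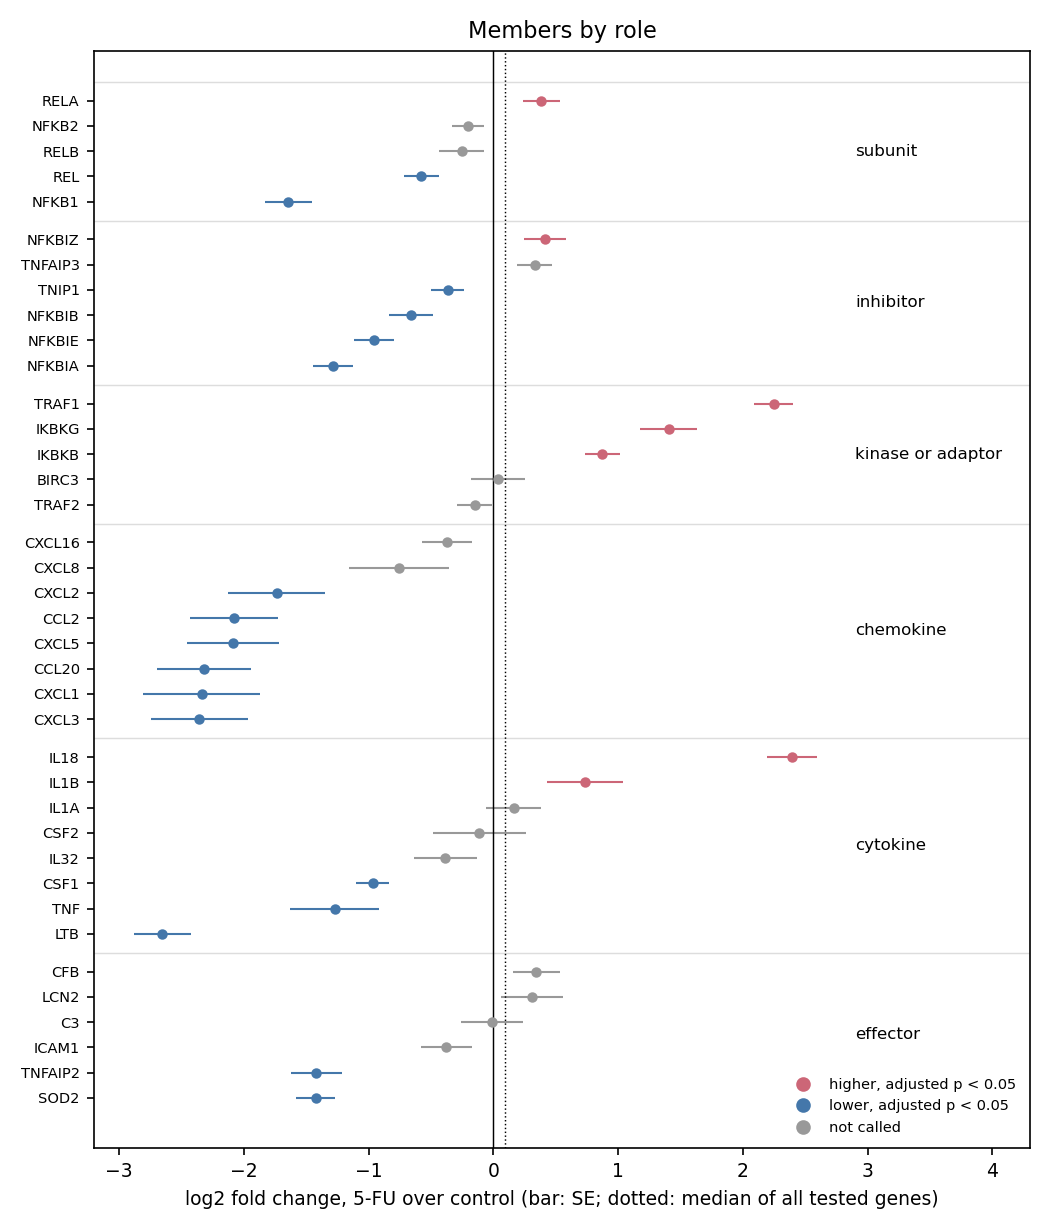
Log2 fold change of each tested member, 5-FU over control, grouped by role; bars are 1 SE, red marks members called higher, blue those called lower and grey those not called, and the dotted line is the median of all 19771 tested genes (0.09). The chemokines lie furthest to the left as a group, from -2.36 to -0.37, and TRAF1 and IL18 furthest to the right, at 2.25 and 2.39.

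The neutrophil-attracting chemokines of chromosome 4 fell together, with the exception of CXCL8. CXCL5 had the highest level per gene length of all members in control: it stood at 4008, 1873 and 3246 CPM in control replicates 1 to 3 and at 336, 909 and 905 CPM in 5-FU replicates 1 to 3. The highest 5-FU library thus lay far below the lowest control library, and the level was 4.24-fold lower on average (log2 fold change -2.09, SE 0.37, edgeR adjusted p = 0.000373). CXCL1, a close relative that acts on the same receptor, CXCR2, had 189.8, 56.2 and 108.1 CPM in control and 8.76, 35.0 and 26.2 CPM after 5-FU. Its groups did not overlap either, with control replicate 2 closest to 5-FU replicate 2, and it was 5.06-fold lower (-2.34, SE 0.47, edgeR adjusted p = 0.000893). CXCL3 went from 172, 59.7 and 137.5 to 12.9, 35.8 and 23.3 CPM, 5.13-fold lower (-2.36, SE 0.39). CXCL2 went from 89.1, 35.5 and 60.6 to 7.74, 26.3 and 21.5 CPM, 3.33-fold lower (-1.74, SE 0.39). In each of these genes every control library was above every 5-FU library. CXCL1, CXCL2 and CXCL3 share part of their sequence: 4.8%, 12.5% and 6.0% of their 50-base stretches also occur in transcripts of the other two. Reads in those stretches cannot be assigned from the table alone.

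CXCL8, interleukin 8, the best known neutrophil attractant of this family, was not called. It had 93.6, 31.4 and 47.6 CPM in control and 15.5, 46.3 and 40.2 CPM after 5-FU, and the groups overlapped (log2 fold change -0.76, SE 0.40, edgeR adjusted p = 0.11). The difference passed without control replicate 2 and without the low-count filter, and its log2 fold change ran from -1.09 to -0.25 over the alternatives. CXCL8 (chromosome 4, 73740506 to 73743716), CXCL1 (73869393 to 73871242), CXCL5 (73995642 to 73998779), CXCL3 (74036589 to 74038807) and CXCL2 (74097035 to 74099293) lie in that order in 1 cluster on GRCh38. Whether CXCL8 differed from its neighbours in its response was not tested.

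**Figure D3:**
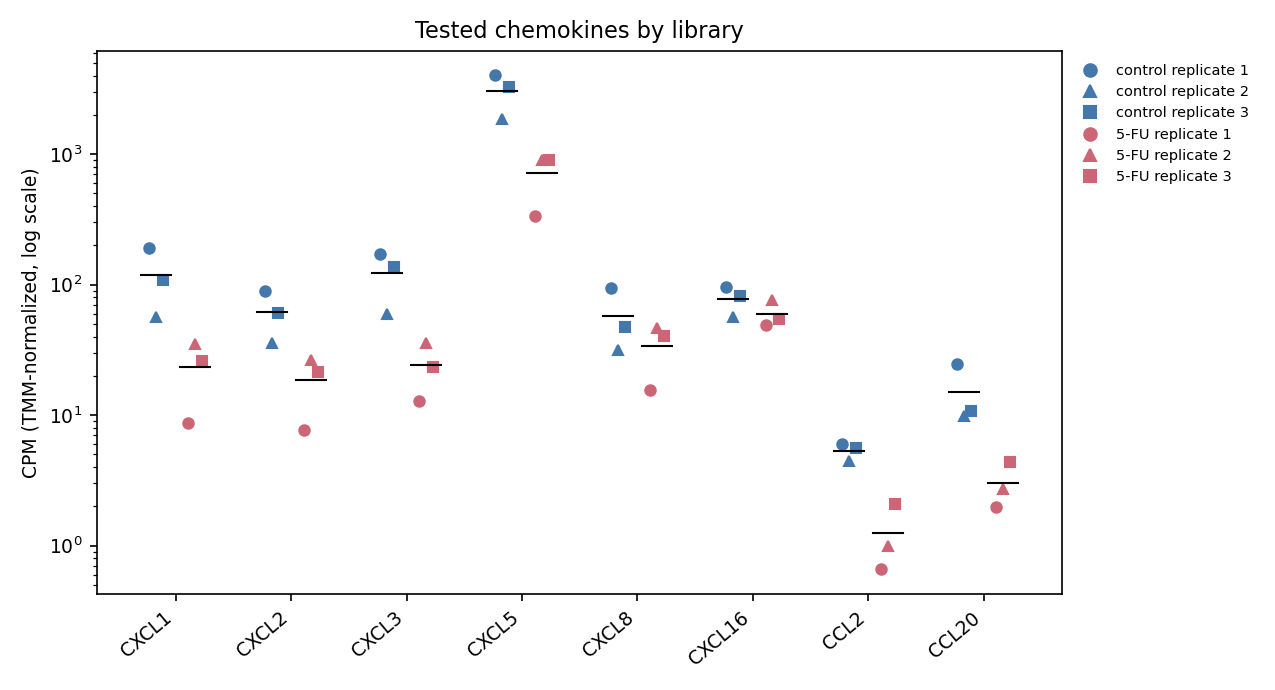
CPM of the 8 tested chemokines in each library on a log scale, with control in blue, 5-FU in red, the marker shape for the replicate and a black line for the group mean. In all 8, control replicate 1 is the highest control library, control replicate 2 the lowest, and 5-FU replicate 1 the lowest 5-FU library.

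The chemokines also varied together within the groups. In all 8 tested chemokines control replicate 1 was the highest and control replicate 2 the lowest control library, and 5-FU replicate 1 was the lowest of its group. Over all tested genes these libraries held those places for 30.1%, 40.2% and 37.3% of genes, and over all 38 tested members for 71.1%, 68.4% and 65.8%, so the order was not limited to the chemokines. The highest control library was 3.38 times the lowest for CXCL1 and 2.14 times for CXCL5, where the median over all genes was 1.31. Within the 5-FU group the same ratio was 3.995 for CXCL1 and 2.71 for CXCL5, against a median of 1.32. NFKBIA and RELA spread less, at 1.27 and 1.25 in control and 1.52 and 1.41 after 5-FU.

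Among the other chemokines, CCL20, which draws CCR6-bearing lymphocytes and dendritic cells to the gut epithelium, had 24.8, 9.90 and 10.8 CPM in control and 1.99, 2.71 and 4.36 CPM after 5-FU. It was 5.00-fold lower (log2 fold change -2.32, SE 0.38, edgeR adjusted p = 0.000209) with no overlap. The monocyte attractant CCL2 was expressed at a low level, 5.97, 4.43 and 5.63 CPM in control, and fell to 0.66, 0.99 and 2.08 CPM (-2.08, SE 0.35), the last from 44 counts in 5-FU replicate 3 against 13 and 19 in the others. CXCL16, a membrane-bound chemokine for CXCR6-bearing T cells, was not called, with 95.2, 56.3 and 82.0 CPM in control and 49.1, 76.4 and 54.7 CPM after 5-FU (-0.37, SE 0.20, edgeR adjusted p = 0.12). In all, 6 of 8 tested chemokines fell (75%, against 33.9% of all genes) and none rose (against 36.3%). Their median log2 fold change was -2.08, against 0.09 for all tested genes.

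The 5 NF-kB subunits did not move as 1 group. NFKB1, whose p105 product is cut to the p50 subunit, fell from 79.7, 59.9 and 74.0 CPM to 17.0, 29.2 and 22.2 CPM. Each 5-FU library was far below the lowest control library, and the level was 3.13-fold lower (log2 fold change -1.65, SE 0.19, edgeR adjusted p = 1.62e-05). REL, which encodes c-Rel, had 23.2, 18.9 and 22.3 CPM in control and 14.0, 14.3 and 14.8 CPM after 5-FU (-0.58, SE 0.14, edgeR adjusted p = 0.00286). REL shares 43.3% of its exonic bases with another annotated gene on its strand and lost its call with upper-quartile factors (adjusted p = 0.16). RELA, the p65 subunit that carries the main activation domain, was slightly higher at 102.1, 85.1 and 72.3 CPM against 70.0, 57.2 and 71.6 CPM, and 5-FU replicate 3 lay just above control replicate 3. Its call (0.38, SE 0.15, edgeR adjusted p = 0.0337) was lost in 11 of 16 alternatives. NFKB2, the source of p52, and RELB, its partner in the non-canonical pathway, were not called. NFKB2 had 115.5, 121.6 and 131.2 CPM in control and 100.4, 125.1 and 94.4 CPM after 5-FU, and RELB 34.4, 33.4 and 42.4 against 23.7, 39.7 and 29.02. Their log2 fold changes were -0.20 (SE 0.13) and -0.25 (SE 0.18), and both turned positive with upper-quartile factors, at 0.15 and 0.10. Both were called lower without the low-count filter and without 5-FU replicate 2.

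All 3 classical IkB genes fell. NFKBIA, IkB-alpha, had 174.0, 136.5 and 164.1 CPM in control and 51.0, 77.8 and 65.6 CPM after 5-FU, a 2.44-fold lower level with no overlap (log2 fold change -1.29, SE 0.16, edgeR adjusted p = 3.15e-05). NFKBIE, IkB-epsilon, went from 52.1, 42.3 and 55.0 to 21.9, 31.2 and 23.8 CPM (-0.96, SE 0.16). NFKBIB, IkB-beta, went from 36.8, 28.5 and 35.4 to 15.7, 23.7 and 24.2 CPM (-0.66, SE 0.18); its call was lost with upper-quartile factors and at a mean count of at least 50. TNIP1, which helps TNFAIP3 restrain the pathway, was lower by a small margin, 264.8, 216.7 and 212.3 against 179.6, 194.4 and 164.8 CPM (-0.37, SE 0.13, edgeR adjusted p = 0.0271), and lost its call in 5 alternatives, without control replicate 1 and without 5-FU replicate 3 among them.

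The other feedback genes did not follow the IkB genes. TNFAIP3, which encodes the ubiquitin-editing enzyme A20, had 109.5, 80.4 and 101.6 CPM in control and 105.4, 134.0 and 126.9 CPM after 5-FU. The groups overlapped and the gene was not called (log2 fold change 0.33, SE 0.14, edgeR adjusted p = 0.0575), though its value was above 0 in every alternative and passed in 3 of them. NFKBIZ, an atypical nuclear IkB protein that can act as a coactivator, had 88.5, 54.5 and 67.5 CPM in control and 106.4, 84.2 and 89.2 CPM after 5-FU. Its groups overlapped as well, and its call (0.41, SE 0.17, edgeR adjusted p = 0.0466) was lost in 12 of 16 alternatives. Over the 11 subunits and inhibitors together 6 fell (54.5%, against 33.9% of all genes) and 2 rose (18.2%, against 36.3%), at a median of -0.37. Over the 16 tested chemokines and cytokines 9 fell (56.2%, a similar share) and 2 rose (12.5%), at a median of -1.12. Taken apart, the median was -2.08 for the chemokines and -0.25 for the cytokines. The difference between the subunits and inhibitors and the chemokines and cytokines was not tested.

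**Figure D4:**
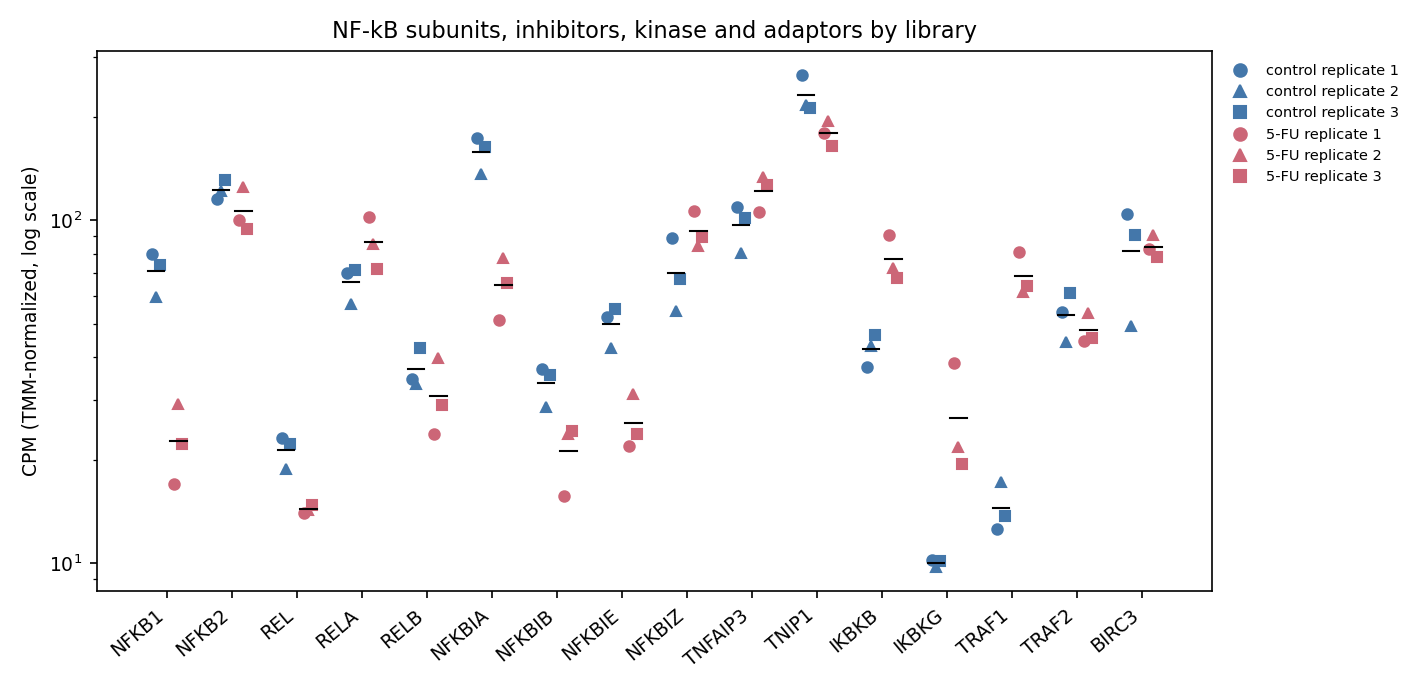
CPM of the NF-kB subunits, inhibitors, kinase subunits and adaptors in each library on a log scale, with control in blue, 5-FU in red, the marker shape for the replicate and a black line for the group mean. NFKB1 and NFKBIA lie lower in every 5-FU library, IKBKB, IKBKG and TRAF1 higher in every one, and NFKB2, RELB, TRAF2 and BIRC3 overlap.

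Of the 5 kinase subunits and adaptors among the members, 3 rose (60%, against 36.3% of all genes) and none fell (against 33.9%). TRAF1, an adaptor of TNF receptors and itself a known NF-kB target, had 12.6, 17.3 and 13.7 CPM in control and 80.8, 61.8 and 64.3 CPM after 5-FU. It rose 4.74-fold (log2 fold change 2.25, SE 0.16, edgeR adjusted p = 1.15e-06), and each 5-FU library was well above the highest control library. IKBKB, the catalytic IKK-beta subunit, rose from 37.3, 42.9 and 46.3 to 90.9, 72.6 and 68.0 CPM (0.87, SE 0.14, edgeR adjusted p = 0.000192). IKBKG, the regulatory subunit NEMO, had 10.2, 9.76 and 10.1 CPM in control and 38.5, 21.9 and 19.5 CPM after 5-FU (1.40, SE 0.23), with 5-FU replicate 1 well above the other two. Its value is uncertain, since it shares sequence with its near-identical pseudogene IKBKGP1. TRAF2 and BIRC3, which work together in TNF receptor complexes, were not called: TRAF2 had 53.9, 44.2 and 61.2 CPM in control and 44.5, 53.8 and 45.4 CPM after 5-FU, and BIRC3, also known as cIAP2, 104.4, 49.1 and 90.9 against 82.2, 90.4 and 78.4. The log2 fold change was -0.15 (SE 0.14) for TRAF2 and 0.04 (SE 0.22) for BIRC3.

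Among the cytokines, LTB and IL18 had the largest changes, in opposite directions. LTB, lymphotoxin beta, a membrane-anchored TNF family ligand, fell from 90.8, 77.3 and 113.2 to 9.68, 19.4 and 15.6 CPM. That was 6.30-fold lower (log2 fold change -2.66, SE 0.23, edgeR adjusted p = 3.12e-06), the largest decrease of all members. IL18, a cytokine that epithelial cells store as a precursor and inflammasomes activate, rose from 25.7, 19.8 and 15.8 to 103.2, 132.4 and 86.3 CPM, 5.25-fold (2.39, SE 0.20, edgeR adjusted p = 2.64e-06). No 5-FU library came near the control range.

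CSF1, the macrophage growth factor, fell from 188.2, 146.0 and 194.0 to 87.6, 95.7 and 86.9 CPM (log2 fold change -0.97, SE 0.13, edgeR adjusted p = 6.52e-05). TNF was called lower (-1.27, SE 0.35, edgeR adjusted p = 0.00703), yet its groups overlapped: it had 17.3, 7.64 and 13.6 CPM in control and 3.11, 8.40 and 4.45 CPM after 5-FU. IL1B was near the detection limit, counted 39, 23 and 20 times in control and 46, 39 and 41 times after 5-FU. Its call as higher (0.73, SE 0.30, edgeR adjusted p = 0.0458) was lost in 9 of the 13 alternatives that tested it. IL1A, IL32 and CSF2 were not called. IL32 had 171.3, 103.6 and 151.2 CPM in control and 65.0, 141.0 and 119.9 CPM after 5-FU, IL1A stayed between 4.05 and 6.86 CPM and CSF2 between 1.54 and 4.67 CPM over the 6 libraries.

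Of the effector genes, SOD2 and TNFAIP2 fell. SOD2, the mitochondrial superoxide dismutase, went from 170.3, 125.9 and 133.9 to 43.9, 53.9 and 62.4 CPM under its main identifier (log2 fold change -1.42, SE 0.16, edgeR adjusted p = 1.44e-05), with no overlap. The second SOD2 entry, which shares 69.7% of its exonic bases with genes on its strand, held at most 6 counts in any library. TNFAIP2, a TNF-induced gene, went from 149.1, 89.4 and 86.8 to 37.3, 48.0 and 36.2 CPM (-1.42, SE 0.20, edgeR adjusted p = 8.66e-05). ICAM1, the adhesion molecule that leukocytes bind, had 102.1, 143.7 and 96.3 CPM in control and 62.7, 90.7 and 110.1 CPM after 5-FU. It was not called (-0.38, SE 0.20, edgeR adjusted p = 0.12), and 23.6% of its exonic bases lie opposite other annotated genes. LCN2, lipocalin 2, an iron-withholding defence protein, was, with CXCL5, one of the 2 members highest per gene length, at 575.2, 374.2 and 354.3 CPM in control and 342.8, 582.4 and 689.9 CPM after 5-FU, not called (0.31, SE 0.25). The complement genes C3 and CFB were not called, at -0.01 (SE 0.25) and 0.34 (SE 0.19); 45.5% of the exonic bases of CFB are shared with other genes.

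Per gene length, the chemokines carried most of the members' RNA in untreated cells. CXCL5 stood at 1248 ± 458 FPKM in control and 268 ± 128 FPKM after 5-FU (mean ± SD, n = 3 per group), ahead of LCN2 at 282.5 ± 81.8 and 318.5 ± 112.8 FPKM. LCN2 had the higher group mean of the pair after 5-FU, where the difference between them lay within their spread. In control LCN2 was followed by CXCL1 at 95.0 ± 55.0, NFKBIA at 69.3 ± 9.55, LTB at 63.5 ± 13.1 and CXCL3 at 57.9 ± 27.7 FPKM, 4 genes whose spreads overlap. After 5-FU the next after LCN2 and CXCL5 was IL18, at 38.3 ± 8.73 FPKM, then IL32 at 32.0 ± 12.3 FPKM. The listed chemokines summed to 2049, 890 and 1598 FPKM in control and to 159, 449 and 424 FPKM in 5-FU libraries. CXCL5 made up 80.7% to 84.4% of that sum in control and 75.0% to 80.5% after 5-FU. Without CXCL5 the chemokines summed to 395, 139 and 258 FPKM against 39.8, 106 and 82.6 FPKM, still without overlap.

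The 11 subunits and inhibitors summed to 268, 212 and 256 FPKM in control and to 144, 183 and 157.5 FPKM after 5-FU. Their ratio of group means, 1.52, was smaller than that of the chemokines and cytokines together, 3.74. Taken apart, the ratio was 4.40 for the chemokines and 1.59 for the cytokines, the latter near that of the subunits and inhibitors. The summed cytokines overlapped, with 185.5, 129.1 and 184.5 FPKM in control and 81.6, 131.7 and 101.3 FPKM after 5-FU. The 5 kinase subunits and adaptors were the only role with a higher sum in every 5-FU library, 42.5 to 49.3 FPKM against 28.3 to 39.8 FPKM in control. These sums describe the deposited FPKM values, whose scaling differed between groups, and were not tested.

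**Figure D5:**
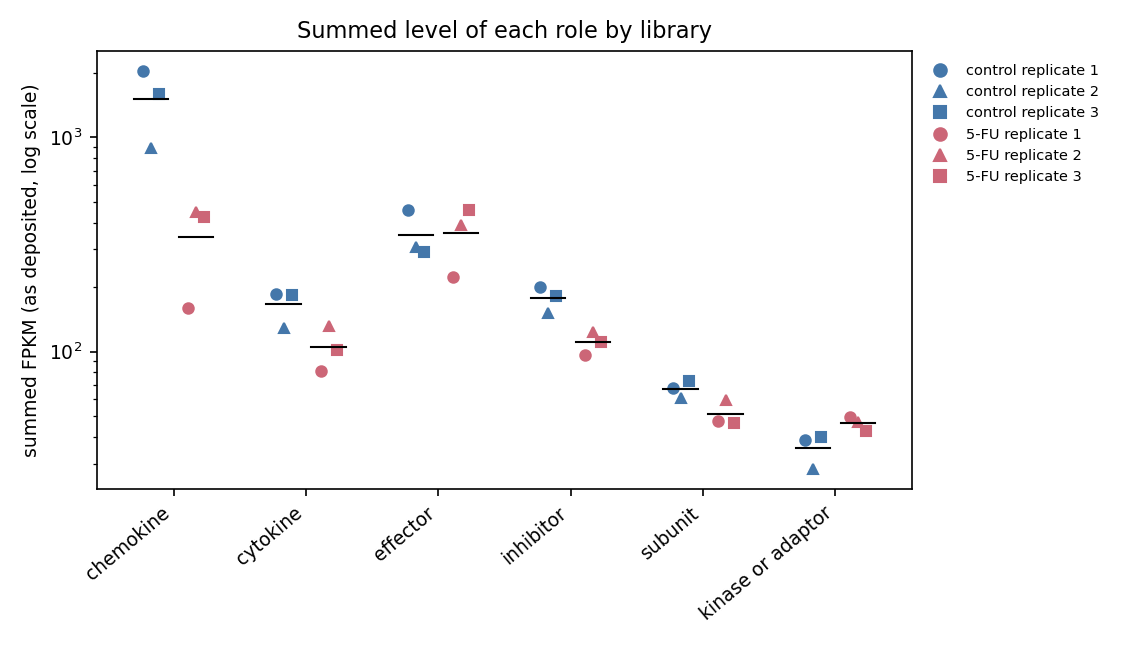
Summed FPKM of each role in each library on a log scale, with control in blue, 5-FU in red, the marker shape for the replicate and a black line for the group mean. Chemokines sum to 890 to 2049 FPKM in control and 159 to 449 FPKM after 5-FU, and the kinase subunits and adaptors are the only role higher in every 5-FU library.

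Read against the promoters shown above, 9 of the 18 tested members with a kB-type match fell (50%, against 33.9% of all genes). In that set 1 member, NFKBIZ, rose (5.56%, against 36.3% of all genes), and the median log2 fold change was -0.67. Of the 12 tested members with a promoter but no match 5 fell (41.7%) and 4 rose (33.3%), at a median of -0.18. Among those with a match, NFKB1, REL, NFKBIA, LTB, CCL20, CXCL1, CXCL2, CXCL3 and CXCL5 fell, while TNFAIP3, BIRC3, ICAM1, LCN2, CFB, CSF2, IL32 and CXCL8 were not called. Whether the share that fell differs between genes with and without a match was not tested.

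Receptors, adaptors and enzymes of the pathway outside the member list changed in both directions. Of 41 such genes 39 were tested, 8 rose (20.5%, against 36.3% of all genes) and 13 fell (33.3%, against 33.9%), at a median log2 fold change of -0.08. MAP3K14, which encodes NIK, the kinase of the non-canonical pathway, rose from 18.2 ± 1.27 to 46.0 ± 5.73 CPM (mean ± SD, n = 3 per group; log2 fold change 1.34, SE 0.13). The TNF receptor adaptor TRADD (0.84, SE 0.13), the deubiquitinase CYLD (0.64, SE 0.11) and the adaptor TRAF5 (0.59, SE 0.11) rose as well. TNFRSF1B, the second TNF receptor, fell from 71.9 ± 18.9 to 29.97 ± 2.39 CPM (-1.26, SE 0.18). IRAK1, the kinase of the IL-1 and Toll-like receptor branch, fell by 1.20 (SE 0.20), TAB1, a partner of the kinase TAK1, by 0.86 (SE 0.12) and NKIRAS2, a small IkB-binding GTPase, by 0.70 (SE 0.13) on the log2 scale.

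Some partners of members were read after their values were seen. CHUK, the IKK-alpha subunit, fell (log2 fold change -0.64, SE 0.12) where IKBKB and IKBKG rose. TRAF3, a part of the complex that marks NIK for destruction, fell (-0.72, SE 0.14). LTBR, the receptor of LTB, was not called (-0.21, SE 0.13; 0.14 with upper-quartile factors), and TNFRSF1A, the main TNF receptor, fell by 0.53 (SE 0.13) with a call that was lost with upper-quartile factors and at a mean count of at least 50. CSF1R, the receptor of CSF1, rose from 13, 18 and 10 counts to 50, 56 and 56 counts (2.09, SE 0.30).

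Of 45 other known NF-kB targets 39 were tested, and 16 rose (41.03%, against 36.3% of all genes) and 7 fell (17.9%, against 33.9%), at a median log2 fold change of 0.10. The tight junction gene CLDN1 rose from 3.00 ± 1.42 to 16.1 ± 5.41 CPM (2.42, SE 0.32), the TNF family ligand TNFSF15 from 38.8 ± 14.3 to 121.7 ± 14.8 CPM (1.65, SE 0.23), the growth factor chain PDGFB by 1.17 (SE 0.15) and the cytokine IL15 by 1.34 (SE 0.21). The early response gene IER3 fell from 216 ± 18.6 to 70.9 ± 16.4 CPM (-1.61, SE 0.17), with the chemokine CCL5 (-1.65, SE 0.19), the immunoproteasome subunit PSMB9 (-1.09, SE 0.14) and the caspase inhibitor XIAP (-0.73, SE 0.11). The acute-phase genes SAA1 and SAA2, named after their values were seen, rose (1.35, SE 0.34 and 1.74, SE 0.33), SAA1 with overlapping groups; they are near copies, so their separate values are uncertain. All log2 fold changes named among these other pathway and target genes as rising or falling had an edgeR adjusted p under 0.05.

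Of the 24 members called, 17 kept their call and direction in every alternative that tested them. These were TRAF1, IL18, IKBKB and IKBKG, all higher, and 13 lower: LTB, NFKB1, NFKBIA, NFKBIE, CSF1, SOD2, TNFAIP2, CCL2, CCL20, CXCL1, CXCL2, CXCL3 and CXCL5. With mitochondrial genes left out 17 members fell and 6 rose, against 6783 and 7280 of 20012 tested genes. The number of members that rose was 4 without control replicate 2, without control replicate 3 and without 5-FU replicate 2, against 7 with all libraries. Of all tested genes, 6639 to 7274 rose in those settings.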

How the data were processed

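RNA from 3 control and 3 5-FU samples of HCT-8 was extracted with TRIzol and made into libraries with the NEBNext Ultra RNA kit, per the labels' protocols. HISAT2 2.0.5, featureCounts 1.5.0-p3, DESeq2 1.16.1 and build GRCh38 are named in the submitters' processing notes; whether counting used strand, and how multi-mapping reads were treated, is not given in the sources used here. Both whole-number counts per gene and FPKM were deposited by the authors. The deposited FPKM equal the count divided by gene length and by 1 constant per library, 0.892 to 0.986 times the total in control and 1.07 to 1.16 times in 5-FU libraries. All 58735 positions matched GENCODE release 29.

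Counts were tested with edgeR 4.0.16 in R 4.3.3 (quasi-likelihood, TMM, filterByExpr with minimum count 10 and total 15, group alone, Benjamini-Hochberg over 19771 genes). Standard errors were derived from the unshrunk log2 coefficient and its F statistic (|coefficient| over √F). The code was tested on simulated data. Alternatives were DESeq2 size factors, upper-quartile factors, omitting mitochondrial genes, omitting the filter, requiring 50 counts on average, DESeq2 1.42.0, a replicate block, leaving out each library, and limma 3.58.1 on log2 FPKM with a pseudocount of 1 or 0.1, for genes at FPKM 1 in 3 libraries, or unfiltered with pseudocount 1. Such fold changes understate low genes. Shared 50-base stretches were counted between GENCODE transcripts on either strand. All members are named; of each companion list, the 4 genes of smallest p in each direction. Members and lists were chosen with earlier results of these data known.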

Additional observations from a re-analysis of the deposited data

How the results depend on the processing

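Over 16 alternatives the number of members that fell ranged from 14 to 23, within 1.5 times the 17 reported. With upper-quartile factors it was 14 of 38, where 4614 of all 19771 tested genes fell. Without the low-count filter it was 23 of 42 entries, where 7588 of all 39721 fell. The number that rose, 7 as reported, was 4 with DESeq2 size factors, without the low-count filter, with the DESeq2 test and with limma on log2(FPKM + 1) or log2(FPKM + 0.1), and 4 to 6 when 1 library was left out. It was 10 with upper-quartile factors and 8 at a mean count of at least 50, where TNFAIP3 and CFB were called higher. Of all tested genes, 9602 of 19771 and 5141 of 14068 rose in those settings. Where 4 members rose, outside 1.5 times the 7 reported, those missing were RELA, NFKBIZ and IL1B, the called members with the smallest increases. In limma on log2(FPKM + 1) or log2(FPKM + 0.1) with the FPKM filter, IL1B was not tested. None of the 24 called members changed direction, and 7 lost their call somewhere.

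Values that changed sign all belong to genes that were not called. With upper-quartile factors, which move the median of all genes by 0.36, log2 fold changes became 0.15 for NFKB2, 0.10 for RELB, 0.21 for TRAF2, 0.25 for CSF2, 0.35 for C3 and 0.14 for LTBR. At a mean count of at least 50 they were 0.047 for NFKB2, 0.10 for TRAF2, 0.14 for CSF2, 0.24 for C3 and 0.038 for LTBR. BIRC3 was -0.00234 with DESeq2 size factors, -0.00239 in DESeq2, -0.11 without the low-count filter, and -0.041 with limma on log2(FPKM + 1), filtered or not, and -0.038 on log2(FPKM + 0.1). Leaving out 1 library gave -0.26 to 0.22 for BIRC3, -0.45 to 0.42 for CSF2, -0.25 to 0.36 for C3 and -0.070 to 0.28 for IL1A. The cause was not tested.

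Same-numbered samples did not deviate together (correlations of -0.07, -0.20 and 0.06 over all tested genes). Differently numbered samples gave correlations from -0.12 to 0.17. With 3 libraries per group this check cannot decide whether the samples were paired. With the replicate block 16 members fell and 7 rose, against 6380 and 6863 of all 19771 tested genes, and C3 was 0.058. Counts limit IL1B, CSF2, CCL2 (70.2 on average), CXCL10, IL6 and PTGS2. A mean of at least 100 counts stood behind 35 of the 38 tested members.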
